A study of Mus musculus with 16 samples.

Results

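The genes described here encode 39 plasma proteins of the complement and coagulation systems and their inhibitors. They were chosen by symbol for what they encode, with earlier results of these data known. All 39 were found among the 23420 genes of the count table. Most of these proteins are made by hepatocytes and secreted into blood. Complement is started by antibody complexes (classical pathway), by sugars on microbes (lectin pathway) or by spontaneous turnover of C3 (alternative pathway), and all routes end in a pore built from C5b, C6, C7, C8 and C9, the membrane attack complex. Coagulation is a cascade of proteases that ends with thrombin turning fibrinogen into fibrin, and plasmin dissolves the clot. In liver these genes are known for sharing hepatocyte transcription factors such as HNF1, HNF4 and C/EBP, and several rise in the acute phase response, in part through STAT3.

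The livers of 16 wild-type male C57BL/6J mice were profiled by RNA-seq, with 4 mice in each of 4 groups. FEN-HFD mice received a high-fat diet (45% of its energy as fat) with 0.04% fenretinide, a synthetic retinoid, and HFD mice the same diet without it. Each diet was given for 20 weeks to some mice and for 7 days to others, so that all animals ate the high-fat diet, and lean controls were not analysed here. The 20-week and 7-day mice were different animals whose ages were not given in the sources used here, and time on the diet cannot be told apart from age or cohort. The question was how fenretinide changes hepatic gene expression on this diet, and each mouse is 1 replicate.

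Counts assigned to genes came to between 19218230 and 32546829 per library. Levels are CPM, counts scaled to library size with TMM factors over all 16 libraries. Groups were compared by edgeR's quasi-likelihood test with Benjamini-Hochberg adjustment over all genes tested, and a gene is called higher or lower below an adjusted p of 0.05. All 39 genes passed the filter on low counts in every comparison. Cyp26a1, which retinoic acid induces, had 287 to 318 CPM in FEN-HFD mice against 3.81 to 5.02 CPM in HFD mice at 20 weeks, and at least 213 CPM in FEN-HFD mice against at most 8.68 CPM in HFD mice at 7 days, so every library fitted its diet label. In the library of FEN-HFD mouse 29 (20 weeks), 53.1% of the counts were of the ribosomal RNA precursor Rn45s, where the other 15 libraries had 0.466% to 1.46%, and 4.36% were of Lars2, where the others had 0.00173% to 0.0499%. The other 3 FEN-HFD libraries at 20 weeks (1.00% to 1.46% Rn45s, 0.00685% to 0.0499% Lars2) were also above the 4 HFD libraries at 20 weeks (0.498% to 0.928% and 0.00194% to 0.00409%), so that these shares moved with the diet at that time. Their part in the results was not tested, and with both genes removed 5 in place of 4 members were called higher with fenretinide at 20 weeks. Mouse 29 had the highest level of its group for 24 of the 39 genes and the lowest for 8, and calls and values that changed by over 1.5 times without it are given in both ways where a fold change is reported.

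Upstream sequence is shown for the C8 subunits, of which C8a and C8b varied between groups far more than C8g, for the fibrinogen chains, which varied together, and for F11, the gene with the smallest p in the 20-week comparison of the diets. The RefSeq promoter table (GRCm38.p6, the mm10 genome) held 31 windows for 30 of the genes. C2, C4b, Cfb, Cfi, Kng1, Masp1, Plg, Proc and Serping1 had none. From each window the 250 bases before the start were searched on both strands, and bases inside the RefSeq gene span or inside a GENCODE exon are left out of the stretches below. Capitals mark matches to GTTAAT (HNF1-type), TTGCNNAA (C/EBP-type), TTCNNNGAA (STAT-type) or TGNACTTTG (HNF4-type), and no matches of different motifs overlapped. The C8 stretches are chr4:104876488-104876648 (minus strand), chr4:104766067-104766316 (plus strand) and chr2:25501778-25501935 (minus strand), each written 5′ to 3′.
C8a: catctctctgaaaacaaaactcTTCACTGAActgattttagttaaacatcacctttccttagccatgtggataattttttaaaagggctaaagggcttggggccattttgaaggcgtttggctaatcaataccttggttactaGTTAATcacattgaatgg
C8b: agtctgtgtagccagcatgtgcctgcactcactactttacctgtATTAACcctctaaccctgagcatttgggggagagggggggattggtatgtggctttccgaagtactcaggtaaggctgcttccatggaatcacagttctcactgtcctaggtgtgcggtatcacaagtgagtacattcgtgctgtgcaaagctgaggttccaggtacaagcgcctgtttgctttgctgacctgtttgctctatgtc
C8g: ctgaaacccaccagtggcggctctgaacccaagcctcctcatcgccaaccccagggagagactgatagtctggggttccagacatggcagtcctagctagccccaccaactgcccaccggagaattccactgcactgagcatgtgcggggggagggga

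The fibrinogen stretches are chr3:83025903-83026075 (plus strand), chr3:83049864-83050113 (minus strand) and chr3:83007474-83007723 (plus strand), and that of F11 is chr8:45262056-45262281 (minus strand).
Fga: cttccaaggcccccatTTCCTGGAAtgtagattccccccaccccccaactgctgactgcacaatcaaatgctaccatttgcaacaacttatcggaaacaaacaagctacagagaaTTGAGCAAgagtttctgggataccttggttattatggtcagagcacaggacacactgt
Fgb: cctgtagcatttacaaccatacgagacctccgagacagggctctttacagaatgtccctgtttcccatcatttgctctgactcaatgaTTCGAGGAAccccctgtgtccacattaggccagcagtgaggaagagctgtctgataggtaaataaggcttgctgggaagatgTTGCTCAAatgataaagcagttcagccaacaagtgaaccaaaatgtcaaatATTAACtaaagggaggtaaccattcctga
Fgg: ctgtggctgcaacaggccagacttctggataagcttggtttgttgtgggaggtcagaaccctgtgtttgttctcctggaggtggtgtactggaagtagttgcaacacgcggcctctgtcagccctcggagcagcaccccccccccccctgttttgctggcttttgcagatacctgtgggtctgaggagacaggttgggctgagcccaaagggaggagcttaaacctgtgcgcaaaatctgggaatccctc
F11: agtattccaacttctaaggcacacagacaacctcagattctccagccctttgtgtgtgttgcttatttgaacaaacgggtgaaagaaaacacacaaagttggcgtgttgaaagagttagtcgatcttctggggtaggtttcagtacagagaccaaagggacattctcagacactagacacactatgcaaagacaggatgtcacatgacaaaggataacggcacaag

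The stretches of C8a and C8b each held an HNF1-type match, with a STAT-type match farther upstream in C8a. Fgb held a match to each of the HNF1, C/EBP and STAT types, and Fga held the C/EBP and STAT types in the stretch shown and an HNF1-type match nearer its start. The windows of Fgg and C8g held no match. F11 had a C/EBP-type match in the last 17 bases of its window, outside the stretch shown. Over all member windows, the HNF1-type letters were in 25.8%, against 6.44% of the 32817 windows of the table. The C/EBP-type letters were in 22.6% against 9.57%, the STAT-type in 19.4% against 7.01%, and the HNF4-type in 3.23%, from F9 alone, against 1.19%. Retinoid response elements, searched as 2 copies of AGGTCA in the same direction 5 bases or 1 base apart, were in 0 member windows, against 0.00914% and 0.0335% of all windows. These are matches of letters, which do not show that a factor binds there, and a window without a match shows nothing about the factor.

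Per kb of exon, the fibrinogen chains Fga, Fgg and Fgb and the central complement protein C3 held the first 4 places in all 4 groups. Fga was first throughout, at 1802 CPM per kb in FEN-HFD mice and 1132 CPM per kb in HFD mice at 20 weeks, and at 1777 and 1704 CPM per kb at 7 days in the same order of diets. Masp1, a lectin pathway protease, was last in both 20-week groups (6.37 and 4.72 CPM per kb). Cfd, the alternative pathway protease also called adipsin, was last in both 7-day groups (2.73 and 0.722 CPM per kb).

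Summed over the 39 genes, the level was 37748, 43491, 46985 and 55562 CPM in FEN-HFD mice at 20 weeks, where the highest was mouse 29, and 28704, 31167, 34888 and 37098 CPM in HFD mice at 20 weeks. It lay between 43061 and 47660 CPM in FEN-HFD mice and between 42651 and 50736 CPM in HFD mice at 7 days. The HFD mice at 20 weeks were thus the lowest group and did not overlap any other. C3, Fga, Fgb and Fgg had the highest levels of the 39 genes in every group and weighed most in this sum. Summed markers of hepatocytes (Alb, Ttr, Apoa1, Apob, Serpina1a and Cps1) had 60696 to 71723 CPM in FEN-HFD mice and 81145 to 91016 CPM in HFD mice at 20 weeks. At 7 days they were 67883 to 78027 CPM in FEN-HFD mice and 76395 to 93297 CPM in HFD mice. Alb made up most of these sums, and the 6 markers did not move together at 20 weeks, where 3 had log2 fold changes above 0 (Apoa1, Serpina1a and Cps1) and 3 below (Alb, Ttr and Apob). Summed markers of Kupffer cells, the macrophages of liver, were 564 to 1343 CPM in FEN-HFD mice and 445 to 537 CPM in HFD mice at 20 weeks, and 578 to 815 CPM and 555 to 1316 CPM at 7 days in the same order. All 9 Kupffer cell markers had log2 fold changes above 0 with fenretinide at 20 weeks (median 0.63, and 0.28 without mouse 29), with 5 higher at an unadjusted p under 0.05 and 1 called by edgeR (Marco). Between the HFD times all 9 were below 0 (median -0.72). Of these, 8 were lower at an unadjusted p under 0.05 and 2 were called (Clec4f and Vsig4), against 12.2% and 2.73% of all genes. With fenretinide at 7 days 0 were called or had an unadjusted p under 0.05, and 1 was above 0. Of the 6 hepatocyte markers 0 were called between the diets at either time by edgeR. At an unadjusted p under 0.05, 2 were higher and 3 lower at 20 weeks, against 8.5% and 10% of all genes. At 7 days 3 were lower at that threshold, against 2.45%. Without mouse 29, 1 was called lower at 20 weeks, against 1.67% of all genes. Between the HFD times 3 (50%) were called lower (Apoa1, Serpina1a and Cps1), against 2.73% of all genes and 53.8% of the 39 genes. The part of these markers in the results below was not tested. In liver samples of this kind, fewer cells of a type and less RNA per cell cannot be told apart.

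**Figure D1:**
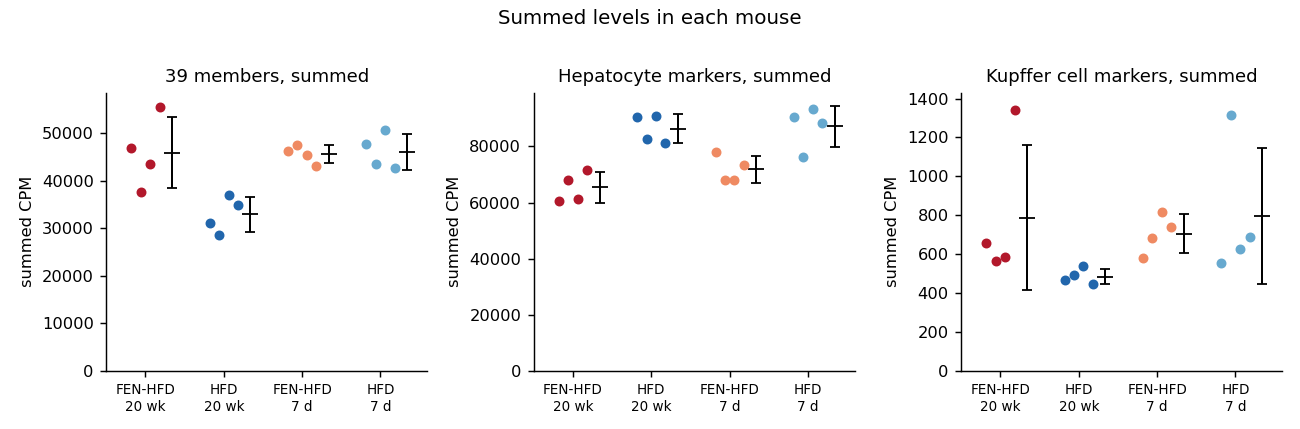
Summed CPM (linear axes from 0) of the 39 genes, of 6 hepatocyte markers and of 9 Kupffer cell markers, with a point for each mouse and the mean and SD of 4 mice beside each group. The sum over the 39 genes is lowest in HFD mice at 20 weeks (28704 to 37098 CPM), while that of the hepatocyte markers, mostly Alb, is not. Taken singly, 3 of the 6 hepatocyte markers were called lower between HFD at 20 weeks and at 7 days, and 3 had log2 fold changes above 0.

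With fenretinide for 20 weeks, 4 of the 39 genes were higher than on the HFD alone and 0 were lower by edgeR, against 0.769% higher and 1.09% lower among the 13010 genes tested. The 4 were the pore genes C6 and C8a, the clotting factor gene F11 and Cfd. At an unadjusted p under 0.05, 24 were higher and 1 was lower, against 8.5% and 10% of all genes. DESeq2 called 19 higher and 1 lower (Mbl2), against 3.03% and 4.27% of all genes in that fit, and limma-voom 12 higher and 1 lower (Mbl2), against 3.75% and 4.82%. The median log2 fold change of the 39 genes was 0.39, with 34 above 0, and that of all genes tested was 0.01. In 20 genes every FEN-HFD mouse lay above every HFD mouse and in 1 below, against 6% and 6.8% of all genes. Without mouse 29, 6 genes were higher (C2, C6, C8a, Mbl1, F11 and Serpinf2), against 1.54% of all genes, and the members' median was 0.32. Only F11 was called when FEN-HFD mouse 21, 22 or 24 or HFD mouse 25 was left out, where the calls over all genes and both directions came to 36, 113, 89 and 56 in place of 242.

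With fenretinide for 7 days, 0 of the 39 genes were called in either direction by edgeR, against 0.0988% higher and 0% lower among 13157 genes tested. At an unadjusted p under 0.05, 2 were higher (Mbl1 and F11) and 1 was lower (Mbl2), against 2.63% and 2.45% of all genes. DESeq2 called Mbl1 higher and Mbl2 lower, against 0.399% and 0.21% of all genes, and limma-voom called 0 members, against 0.175% and 0.0456%. The median log2 fold change of the 39 genes was 0.01, and that of all genes was -0.01. Groups did not overlap in 1 gene that was higher (Mbl1) and 2 that were lower (Mbl2 and Cfi), against 1.69% and 1.5% of all genes.

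At an adjusted p under 0.05 on the HFD alone, 21 of the 39 genes (53.8%) were lower after 20 weeks than after 7 days and 1 was higher, against 2.73% lower and 4.78% higher among the 13255 genes tested. The 21 included members from all 9 roles described below. At an unadjusted p under 0.05, 27 were lower and 2 higher, against 12.2% and 13.3% of all genes. DESeq2 called 24 lower and limma-voom 22, against 4.87% and 3.81% of all genes, and each called 1 higher, against 7.43% and 5.76%. The median log2 fold change of the 39 genes was -0.46, and that of all genes was -0.01. In 25 genes every 20-week mouse lay below every 7-day mouse and in 2 above, against 7.33% and 9.63% of all genes. The count of lower genes was 12 without HFD mouse 25 of the 20-week group and 13 without HFD mouse 142 of the 7-day group, where the calls over all genes and both directions came to 468 and 522 in place of 996. Of the 21, 11 passed under every alternative and with any mouse left out: C1ra, C2, C6, C8a, C8b, C9, Cpb2, F11, Hc, Klkb1 and Plg. The other 10 lost the call in at least 1 of these (C3, F13b, F7, Fga, Fgb, Fgg, Masp1, Serpind1, Serpinf2 and Serping1). The HFD mice at 20 weeks entered both this comparison and that of the diets at 20 weeks, so the directions of both are not independent, and each is given with its own values.

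**Figure D2:**
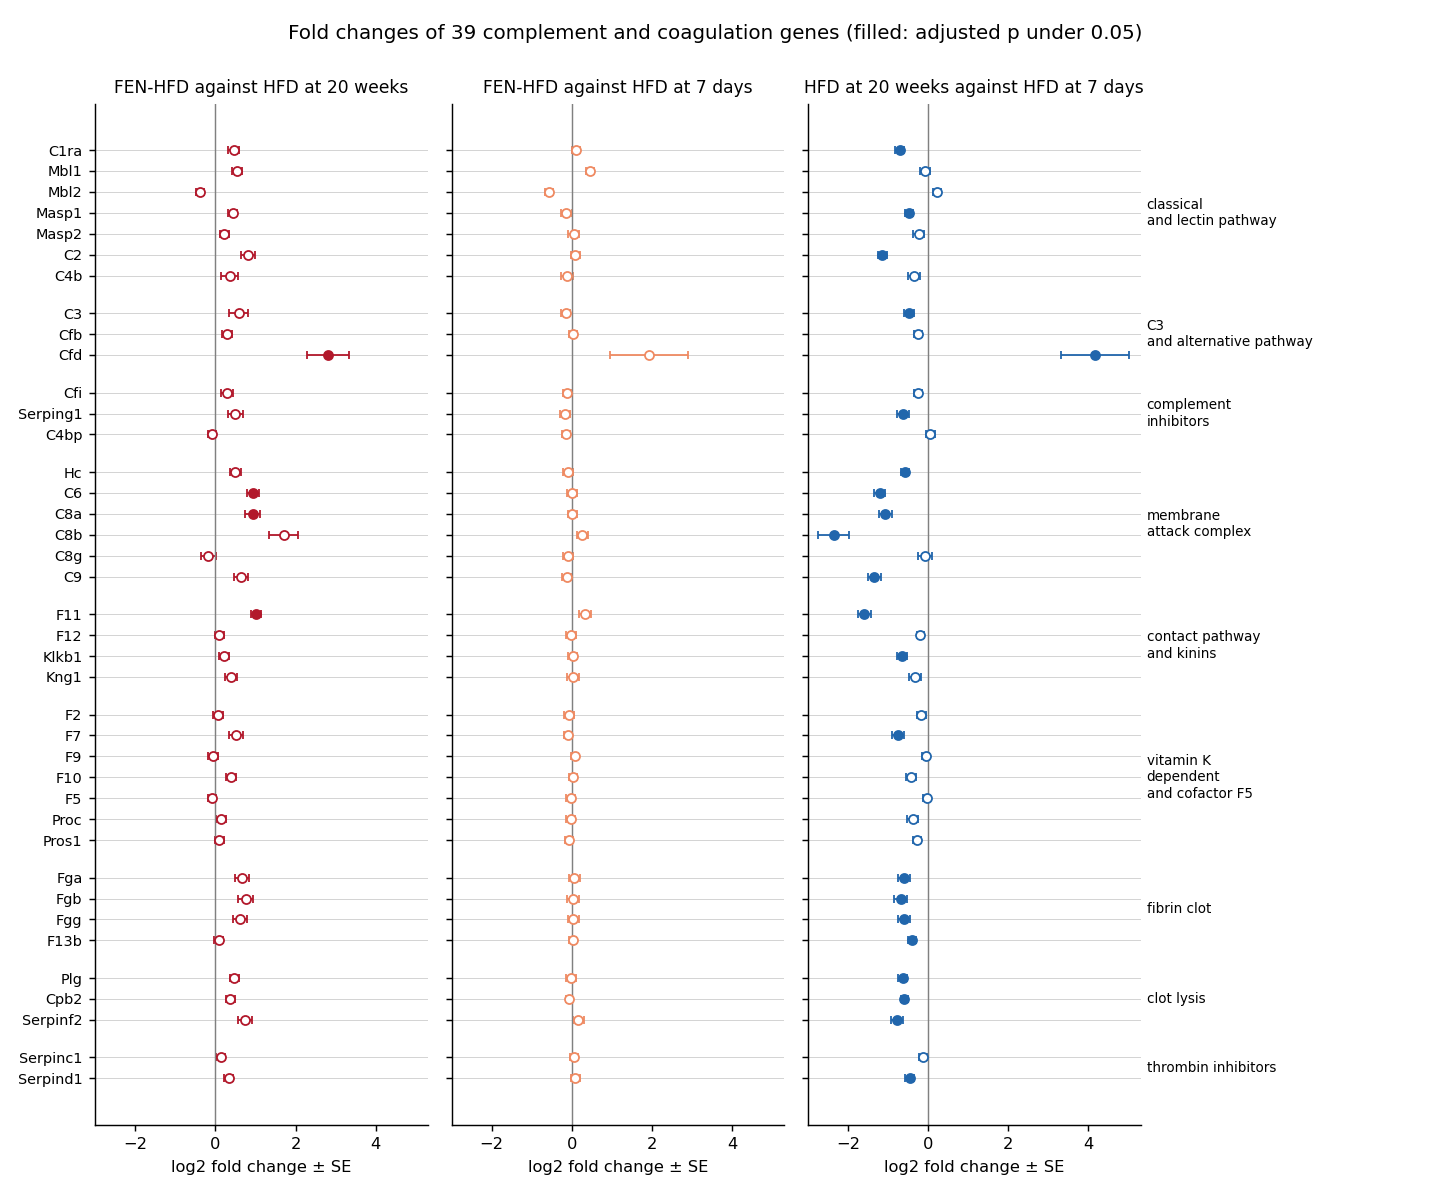
Log2 fold change (x axis) ± standard error from edgeR for each of the 39 genes (rows, grouped by role), in the 3 comparisons named above the panels. Filled points passed an adjusted p of 0.05. Filled points are 4 in the left panel, 0 in the middle panel and 22 in the right panel, and Cfd lies to the right in all 3.

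In FEN-HFD mice, the 20-week livers differed from the 7-day livers in 3 of the 39 genes, a comparison added after the data were seen. F11 and C8b were lower and Cfd was higher, against 0.332% lower and 0.849% higher among the 12949 genes tested. At an unadjusted p under 0.05, 7 were lower and 2 higher, against 3.63% and 6.03% of all genes, and the groups did not overlap in 5 that were lower and 3 that were higher, against 2.46% and 4.09%. The median log2 fold change of the 39 genes was -0.07, and that of all genes was 0.01. Of the genes that did not pass, the 3 with the smallest p were C9 (log2 fold change -0.57, adjusted p = 0.0859, edgeR), Klkb1 (-0.44, adjusted p = 0.128) and Mbl2 (0.41, adjusted p = 0.142). The call of C8b was lost with all 16 libraries in 1 fit (adjusted p = 0.213). DESeq2 called 4 lower and 2 higher, against 1.02% and 1.8% of all genes, and limma-voom 7 lower and 2 higher, against 3.03% and 3.94%. C9 and Klkb1 were among the lower genes of both. Without mouse 29, 4 were lower (C1ra, C2, C8b and F11) and 2 higher (Cfd and Mbl2) by edgeR, against 1.66% and 2.05% of all genes, and the median was -0.11. Mbl2 was then at 0.45 and passed (adjusted p = 0.0395, edgeR).

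Whether fenretinide acted differently at 20 weeks and at 7 days was tested as an interaction, which was called in 0 of the 39 genes in either direction by edgeR, against 0.00747% and 0.0224% of the 13387 genes tested. At an unadjusted p under 0.05, 20 had a larger effect at 20 weeks and 0 a smaller one, against 3.95% and 4.73% of all genes. DESeq2 called 5 (C6, C8a, C8b, C9 and Cpb2) and limma-voom 2 (C6 and F11), each larger at 20 weeks, against 0.348% and 0.261% of all genes larger in those fits. The 3 members with the smallest p were C6 (difference of log2 fold changes 0.94, standard error 0.21, adjusted p = 0.124), C8a (0.93, standard error 0.23, adjusted p = 0.174) and C9 (0.77, standard error 0.21, adjusted p = 0.245), all from edgeR's quasi-likelihood test.

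Among the genes of the membrane attack complex, C6, C8a, C8b, C9 and Hc were lower after 20 weeks of HFD than after 7 days, and C6 and C8a were higher with fenretinide at 20 weeks. C6, which joins C5b to start the pore, had 182, 239, 254 and 274 CPM in FEN-HFD mice at 20 weeks and 102, 112, 140 and 142 CPM in HFD mice at 20 weeks. The 7-day levels were 242, 269, 289 and 327 CPM in FEN-HFD mice and 242, 268, 286 and 337 CPM in HFD mice. Every HFD mouse at 20 weeks lay below every other mouse of the study. C6 rose by 0.94 on the log2 scale (standard error 0.15, adjusted p = 0.0191, edgeR) for FEN-HFD against HFD at 20 weeks, and it fell by 1.21 (standard error 0.14, adjusted p = 0.00161, edgeR) for HFD at 20 weeks against 7 days. For fenretinide at 7 days it was -0.0026 (standard error 0.13). The C6 call with fenretinide at 20 weeks was lost without FEN-HFD mouse 21, 22 or 24 or HFD mouse 25 (adjusted p up to 0.0867, edgeR). C6 lies on chromosome 15 from 4727067 to 4804045.

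C8 is made of an alpha, a beta and a gamma chain, encoded by C8a, C8b and C8g. C8a (chromosome 4, 104815679 to 104876487) had 934, 1151, 1306 and 1358 CPM in FEN-HFD mice and 481, 511, 688 and 810 CPM in HFD mice at 20 weeks. At 7 days the ranges were 1128 to 1390 CPM in FEN-HFD mice and 1191 to 1461 CPM in HFD mice. The 20-week groups did not overlap and the 7-day groups did. The log2 fold changes of C8a were 0.93 (standard error 0.19, adjusted p = 0.0428, edgeR) with fenretinide at 20 weeks and -1.07 (standard error 0.17, adjusted p = 0.00721, edgeR) between HFD at 20 weeks and at 7 days. The C8a call with fenretinide was lost without FEN-HFD mouse 21, 22 or 24 or HFD mouse 25, 28 or 45 (adjusted p up to 0.145, edgeR).

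C8b, the neighbour of C8a (chromosome 4, 104766317 to 104804548), had the most negative fold change of the 39 genes. It had 363, 412, 415 and 446 CPM in FEN-HFD mice and 51.5, 88.9, 170 and 191 CPM in HFD mice at 20 weeks. After 7 days its levels were 678, 726, 808 and 822 CPM in FEN-HFD mice and 545, 546, 704 and 745 CPM in HFD mice. The HFD mice at 20 weeks were the lowest, and the FEN-HFD mice at 20 weeks lay between them and the 7-day mice without overlap. C8b fell by 2.36 on the log2 scale between HFD at 20 weeks and at 7 days (standard error 0.39, adjusted p = 0.0113, edgeR) and by 0.90 between FEN-HFD at 20 weeks and at 7 days (standard error 0.11, adjusted p = 0.00253, edgeR). For FEN-HFD against HFD at 20 weeks the log2 fold change was 1.71 and did not pass (standard error 0.36, adjusted p = 0.0549, edgeR). DESeq2 and limma-voom called it, with adjusted p of 2.7e-05 and 0.00971.

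C8g, on chromosome 2 from 25498650 to 25501777, had 242 to 360.5 CPM in FEN-HFD mice and 263 to 435 CPM in HFD mice at 20 weeks, and 325 to 369 CPM and 302 to 438 CPM at 7 days in the same order. All 4 groups overlapped, and its log2 fold changes were -0.17, -0.11 and -0.07 (standard errors 0.18, 0.13 and 0.17) for fenretinide at 20 weeks, fenretinide at 7 days and HFD at 20 weeks against 7 days. Without mouse 29 C8g was at -0.06 with fenretinide at 20 weeks. C8g overlaps Fbxw5, and since the strand setting of the counting was not given, reads of the pair cannot be told apart. C8a likewise overlaps Fyb2 in the RefSeq annotation.

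C9, which lines the pore, had 488, 538, 623 and 690 CPM in FEN-HFD mice and 277, 342, 413 and 474 CPM in HFD mice at 20 weeks, with 740 to 930 CPM and 911 to 986 CPM at 7 days in the same order. In the comparison of HFD times it fell by 1.34 on the log2 scale (standard error 0.15, adjusted p = 0.00161, edgeR). With fenretinide at 20 weeks its log2 fold change was 0.64 and did not pass (standard error 0.18, adjusted p = 0.0995, edgeR), although the groups did not overlap. Hc, the mouse gene for C5, had 1123 to 1654 CPM in FEN-HFD mice and 938 to 1097 CPM in HFD mice at 20 weeks, against 1206 to 1644 CPM and 1364 to 1606 CPM at 7 days in the same order. It fell by 0.57 between HFD at 20 weeks and at 7 days (standard error 0.10, adjusted p = 0.0100, edgeR), and its fenretinide effect at 20 weeks of 0.50 did not pass (standard error 0.14, adjusted p = 0.0941, edgeR). DESeq2 and edgeR with all 16 libraries in 1 fit called that effect of Hc (adjusted p = 0.00424 and 0.0324).

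**Figure D3:**
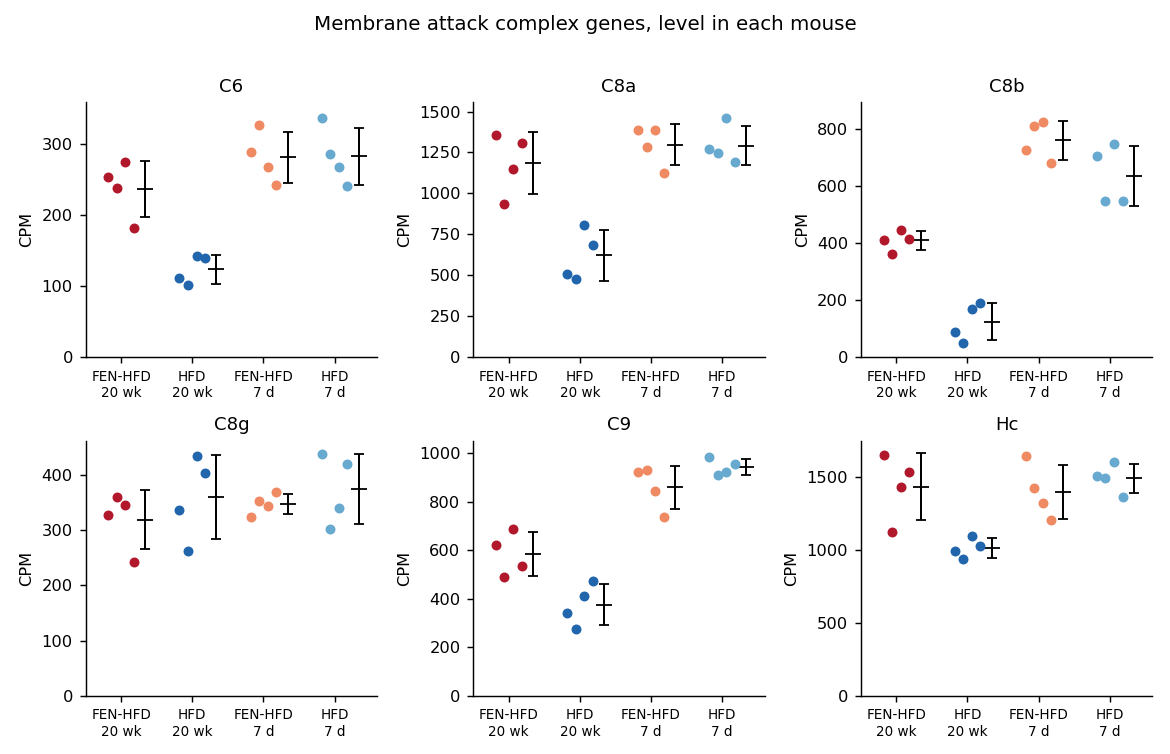
CPM (y axes from 0) of the 6 membrane attack complex genes in each mouse (points), by group, with the mean and SD of 4 mice. For C6, C8a, C8b, C9 and Hc the HFD mice at 20 weeks are the lowest group, and for C8g the 4 groups overlap.

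Of the 7 genes of the classical and lectin pathways, 3 were lower after 20 weeks of HFD than after 7 days (C2, C1ra and Masp1). Between FEN-HFD and HFD, 0 passed at either time in edgeR's pairwise fits with all mice. C2, the protease subunit of the classical C3 convertase (chromosome 17, 34862602 to 34882100), had 155, 159, 171 and 262 CPM in FEN-HFD mice and 90.3, 104, 112 and 118 CPM in HFD mice at 20 weeks. The 7-day ranges were 209 to 291 CPM in FEN-HFD mice and 205 to 258 CPM in HFD mice. The 20-week groups did not overlap, and the highest FEN-HFD mouse was 29. With fenretinide at 20 weeks C2 was at 0.82 on the log2 scale (standard error 0.18, adjusted p = 0.0514, edgeR), and without mouse 29 it was 0.61 and passed (adjusted p = 0.0160, edgeR). In the comparison of HFD times C2 fell by 1.15, with the smallest p of the 39 genes (standard error 0.11, adjusted p = 0.000745, edgeR).

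C1ra, a protease of the C1 complex that is close in sequence to C1rb so that reads may be shared, had 223 to 299 CPM in FEN-HFD mice and 153 to 205 CPM in HFD mice at 20 weeks, and it fell by 0.71 between HFD at 20 weeks and at 7 days, where HFD mice had 273 to 327 CPM (standard error 0.12, adjusted p = 0.00827, edgeR). Masp1 had 55.4 to 72.3 CPM in FEN-HFD mice and 40.3 to 53.7 CPM in HFD mice at 20 weeks, against 57.5 to 67.2 CPM in HFD mice at 7 days. It fell by 0.48 in the comparison of HFD times (standard error 0.10, adjusted p = 0.0227, edgeR). Masp2, the lectin pathway protease that cleaves C4 and C2, and C4b, which is nearly identical to C4a so that its reads are uncertain, passed in 0 of the comparisons by edgeR. Masp2 had 270 to 284 CPM in FEN-HFD mice and 212 to 278 CPM in HFD mice at 20 weeks. C4b had 1249 to 2479 CPM and 1253 to 1627 CPM in the same order, with its highest value in mouse 29.

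Mbl1 and Mbl2, the mouse mannose-binding lectins that start the lectin pathway, differed in opposite directions between the diets at both times. With all mice, neither passed edgeR's pairwise test at either time. With all 16 libraries in 1 edgeR fit, Mbl1 passed at 20 weeks (adjusted p = 0.0142). Mbl2 passed in that fit at 20 weeks (adjusted p = 0.0372) and at 7 days (adjusted p = 0.0329). Mbl1 had 213, 220, 239 and 265 CPM in FEN-HFD mice and 136, 152, 170 and 188 CPM in HFD mice at 20 weeks. The 7-day mice had 222, 228, 231 and 241 CPM on FEN-HFD and 138, 169, 176 and 191 CPM on HFD. Every FEN-HFD mouse lay above every HFD mouse of either time. Its log2 fold changes with fenretinide were 0.54 at 20 weeks (standard error 0.12, adjusted p = 0.0594, edgeR) and 0.46 at 7 days (standard error 0.10, adjusted p = 0.238, edgeR). Without mouse 29, Mbl1 was at 0.57 with fenretinide at 20 weeks and passed (adjusted p = 0.0422, edgeR). In the comparison of HFD times its log2 fold change was -0.07 (standard error 0.13).

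Mbl2 had 262, 285, 292 and 316 CPM in FEN-HFD mice and 363, 368, 373 and 405 CPM in HFD mice at 20 weeks. At 7 days it had 188, 199, 231 and 245 CPM in FEN-HFD mice and 285, 328, 331 and 341 CPM in HFD mice. The diets did not overlap at either time. The log2 fold changes with fenretinide were -0.38 at 20 weeks (standard error 0.10, adjusted p = 0.0754, edgeR) and -0.57 at 7 days (standard error 0.11, adjusted p = 0.133, edgeR). DESeq2 called Mbl1 and Mbl2 at both times. At 7 days, Mbl2, Mbl1 and F11 were the 3 members with the smallest p.

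Cfd had the largest fold changes of the 39 genes. This gene, on chromosome 10 from 79890853 to 79892655, encodes the protease that activates factor B, and most plasma adipsin is known to come from fat tissue. It had 55.0, 55.4, 80.9 and 144 CPM in FEN-HFD mice and 6.05, 7.77, 9.26 and 24.3 CPM in HFD mice at 20 weeks, with its highest value in mouse 29. Its 7-day levels were 0.429, 1.57, 2.91 and 5.14 CPM in FEN-HFD mice and 0.0645, 0.0955, 1.15 and 1.35 CPM in HFD mice, where 2 of the 4 HFD libraries had only 2 and 3 counts. The diets did not overlap at 20 weeks and overlapped at 7 days. With fenretinide it rose by 2.81 on the log2 scale at 20 weeks (standard error 0.52, adjusted p = 0.0380, edgeR). The call was lost without any single mouse of that comparison except HFD mouse 33, with log2 fold changes from 2.43 to 2.97 over those fits and 2.43 without mouse 29 (adjusted p = 0.0708, edgeR), and it was also lost without the filter on low counts (adjusted p = 0.0897). At 7 days the log2 fold change was 1.92 and did not pass (standard error 0.98, unadjusted p = 0.0864, edgeR).

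Between 20 weeks and 7 days, Cfd was higher both with fenretinide, by 5.08 on the log2 scale (standard error 0.66, adjusted p = 0.0117, edgeR), and on the HFD alone, by 4.16 (standard error 0.85, adjusted p = 0.0270, edgeR). The call on the HFD alone was lost without HFD mouse 25 at 20 weeks, without 143, 144 or 146 at 7 days, and without the filter on low counts (adjusted p = 0.0608). Of the other adipocyte markers, Adipoq had 0 counts in all 4 FEN-HFD mice at 20 weeks. HFD mouse 45 at 20 weeks had 3.19 CPM of Adipoq and 1.70 CPM of Lep, with 9.26 CPM of Cfd, and no other library exceeded 0.121 CPM of either.

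**Figure D4:**
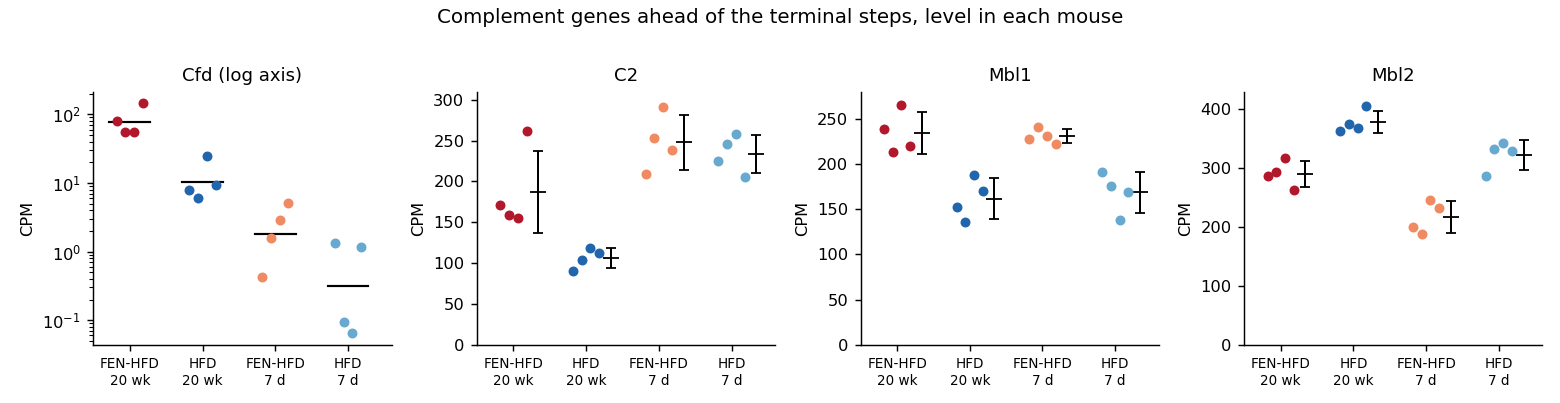
CPM of Cfd (log axis, with a line at the geometric mean) and of C2, Mbl1 and Mbl2 (axes from 0, with the mean and SD of 4 mice) in each mouse (points), by group. FEN-HFD mice lie above HFD mice for Mbl1 and below them for Mbl2 at both times.

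C3, whose cleavage all complement routes share (chromosome 17, 57203967 to 57228136), had 5133, 5815, 7869 and 11391 CPM in FEN-HFD mice and 4542, 4721, 5374 and 5559 CPM in HFD mice at 20 weeks. The groups overlapped, and the highest value was that of mouse 29. With fenretinide C3 was at 0.58 on the log2 scale (standard error 0.24, adjusted p = 0.235, edgeR), and without mouse 29 at 0.32 (standard error 0.16, adjusted p = 0.275, edgeR). Between HFD at 20 weeks and at 7 days, where HFD mice had 6316 to 7776 CPM, C3 fell by 0.48 (standard error 0.12, adjusted p = 0.0434, edgeR), a call that was lost with any single mouse left out, with RLE scaling (adjusted p = 0.0519), with all 16 libraries in 1 fit (adjusted p = 0.138) and without the filter on low counts (adjusted p = 0.0616). Cfb, the protease subunit of the alternative C3 convertase, had 1557 to 2051 CPM in FEN-HFD mice and 1339 to 1529 CPM in HFD mice at 20 weeks, without overlap and without a call (log2 fold change 0.28, standard error 0.12).

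Of the 3 complement inhibitors, Serping1, the C1 inhibitor, fell by 0.62 between HFD at 20 weeks and at 7 days (standard error 0.15, adjusted p = 0.0383, edgeR). It had 332 to 479 CPM in HFD mice at 20 weeks and 531 to 779 CPM in HFD mice at 7 days, where the highest was mouse 143. In FEN-HFD mice at 20 weeks it had 448 to 810 CPM and overlapped the HFD mice. Cfi, the protease that degrades C3b and C4b, and C4bp, its cofactor for C4b, were not called by edgeR. Cfi was at -0.26 between the HFD times (standard error 0.09, adjusted p = 0.122, edgeR), where DESeq2 called it (adjusted p = 0.0206). Cfi had 570 to 937 CPM in FEN-HFD mice and 552 to 648 CPM in HFD mice at 20 weeks, and C4bp had 595 to 657 CPM and 625 to 737 CPM in the same order.

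F11 had the smallest p of the 39 genes with fenretinide at 20 weeks and was the only member called in that comparison under every alternative. It encodes factor XI, the protease that activates factor IX, and lies on chromosome 8 from 45240659 to 45262055, beside Klkb1. It had 97.2, 97.2, 102 and 106 CPM in FEN-HFD mice and 38.0, 48.2, 51.6 and 60.7 CPM in HFD mice at 20 weeks. At 7 days F11 had 157, 186, 195 and 203 CPM in FEN-HFD mice and 107, 159, 163 and 164 CPM in HFD mice. The 20-week diets did not overlap, each 20-week group lay below both 7-day groups (the lowest 7-day mouse, 143, only just), and the 7-day diets overlapped.

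The log2 fold change of F11 with fenretinide was 1.02 at 20 weeks (standard error 0.13, adjusted p = 0.00806, edgeR) and 0.32 at 7 days (standard error 0.14, adjusted p = 0.976, edgeR). The difference of 0.70 between the times did not pass (standard error 0.21, adjusted p = 0.307, edgeR). F11 fell by 1.59 between HFD at 20 weeks and at 7 days (standard error 0.17, adjusted p = 0.00133, edgeR) and by 0.89 between FEN-HFD at 20 weeks and at 7 days (standard error 0.10, adjusted p = 0.00180, edgeR).

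The other genes of the contact pathway varied less. Klkb1, which encodes prekallikrein, had 252 to 308 CPM in FEN-HFD mice and 194 to 271 CPM in HFD mice at 20 weeks, against 339 to 452 CPM and 344 to 420 CPM at 7 days in the same order. It fell by 0.65 between HFD at 20 weeks and at 7 days (standard error 0.12, adjusted p = 0.0143, edgeR). F12, which encodes the protease that starts the pathway, had 509 to 572 CPM in FEN-HFD mice and 471 to 555 CPM in HFD mice at 20 weeks. Kng1, which encodes kininogen and shares sequence with Kng2 so that its reads are uncertain, had 1840 to 2762 CPM and 1547 to 1927 CPM in the same order. Neither F12 nor Kng1 was called in any comparison by edgeR.

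Of the vitamin K dependent factors and the cofactor F5, F7 alone was called in edgeR's pairwise fits, in the comparison of the HFD times. F7, the factor that tissue factor binds to start clotting, had 65.0 to 96.5 CPM in FEN-HFD mice and 40.4 to 66.0 CPM in HFD mice at 20 weeks, against 82.0 to 99.1 CPM in HFD mice at 7 days. It fell by 0.76 in the comparison of HFD times (standard error 0.14, adjusted p = 0.0140, edgeR). F10, its neighbour on chromosome 8 and the protease that makes thrombin, had 428 to 504 CPM in FEN-HFD mice and 296 to 408 CPM in HFD mice at 20 weeks. Its log2 fold change between the HFD times was -0.43 and did not pass (standard error 0.12, adjusted p = 0.0665, edgeR).

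F2, which encodes prothrombin, had 1692 to 2008 CPM in FEN-HFD mice and 1623 to 1957 CPM in HFD mice at 20 weeks. F9, the gene of the factor lost in haemophilia B, had 151 to 222 CPM and 181 to 212 CPM in the same order. F5, the cofactor of factor X, had 474 to 529 CPM and 486 to 576 CPM. The log2 fold changes of F2, F9 and F5 lay between -0.17 and 0.07 in the 2 comparisons of diets and the comparison of HFD times, and without mouse 29 those of F2 and F9 with fenretinide at 20 weeks were 0.02 and 0.03. For the anticoagulant genes Proc (protein C) and Pros1 (its cofactor protein S), the log2 fold changes with fenretinide at 20 weeks were 0.14 and 0.10 (0.12 and 0.04 without mouse 29), and those between the HFD times were -0.39 (adjusted p = 0.118, edgeR) and -0.29 (adjusted p = 0.122, edgeR).

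The fibrinogen genes Fga, Fgb and Fgg, which lie within 1 stretch of chromosome 3 from 83007724 to 83049863, varied together. Fgb had 4525, 5458, 5683 and 6822 CPM in FEN-HFD mice and 2600, 3021, 3782 and 3918 CPM in HFD mice at 20 weeks. At 7 days it had 4799 to 5928 CPM in FEN-HFD mice and 4352 to 6308 CPM in HFD mice. For each of the 3 chains the 20-week diets did not overlap and the 7-day diets did. With fenretinide at 20 weeks the log2 fold changes were 0.76 for Fgb, 0.67 for Fga and 0.61 for Fgg, none of which passed (adjusted p = 0.0682, 0.0836 and 0.0928, edgeR), while DESeq2 called all 3.

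Between HFD at 20 weeks and at 7 days the fibrinogen chains fell by 0.69 (Fgb), 0.60 (Fga) and 0.61 (Fgg) on the log2 scale (adjusted p = 0.0384, 0.0363 and 0.0373, edgeR). These calls were lost when HFD mouse 25, 28 or 45 at 20 weeks or 142 or 144 at 7 days was left out. Fga had 4074 to 6541 CPM in FEN-HFD mice and 2791 to 3880 CPM in HFD mice at 20 weeks, and Fgg had 2830 to 4088 CPM and 1859 to 2738 CPM in the same order. F13b, the carrier subunit of the factor that crosslinks fibrin, had 210 to 280 CPM in FEN-HFD mice and 211 to 264 CPM in HFD mice at 20 weeks. It fell by 0.41 between the HFD times, where the 7-day mice had 295 to 330 CPM (standard error 0.09, adjusted p = 0.0272, edgeR).

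The 3 genes of clot lysis were lower after 20 weeks of HFD than after 7 days. Serpinf2, which encodes the plasmin inhibitor, had 731, 819, 874 and 1214 CPM in FEN-HFD mice and 462, 522, 543 and 641 CPM in HFD mice at 20 weeks, with mouse 29 the highest, and 977 to 1058 CPM and 768 to 1128 CPM at 7 days in the same order. It fell by 0.79 between the HFD times (standard error 0.15, adjusted p = 0.0143, edgeR). With fenretinide at 20 weeks its log2 fold change was 0.75 and did not pass (standard error 0.17, adjusted p = 0.0629, edgeR). Without mouse 29 it was 0.58 and passed (adjusted p = 0.0444, edgeR).

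Plg, which encodes plasminogen (chromosome 17, 12378609 to 12419384), had 1685, 1735, 1947 and 1968 CPM in FEN-HFD mice and 1157, 1343, 1347 and 1438 CPM in HFD mice at 20 weeks, without overlap, and 1839 to 2179 CPM and 1867 to 2347 CPM at 7 days in the same order. It fell by 0.64 between the HFD times (standard error 0.11, adjusted p = 0.0112, edgeR), and its fenretinide effect at 20 weeks of 0.47 did not pass (standard error 0.12, adjusted p = 0.0749, edgeR). Cpb2, a carboxypeptidase that protects fibrin from lysis, had 260 to 323 CPM in FEN-HFD mice and 201 to 251 CPM in HFD mice at 20 weeks, and fell by 0.59 between the HFD times, where the 7-day mice had 327 to 359 CPM (standard error 0.09, adjusted p = 0.00619, edgeR). Of the thrombin inhibitors, Serpind1 (heparin cofactor II) fell by 0.46 between the HFD times (standard error 0.12, adjusted p = 0.0468, edgeR), with 443 to 568 CPM in HFD mice at 20 weeks and 582 to 758 CPM at 7 days. Serpinc1 (antithrombin) had 1870 to 2045 CPM in FEN-HFD mice and 1631 to 1911 CPM in HFD mice at 20 weeks and was not called. Serpind1, Masp1, Masp2 and F2 each overlap another coding gene (Pi4ka, Rtp4, Tardbp and Ckap5), whose reads may be mixed with theirs.

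**Figure D5:**
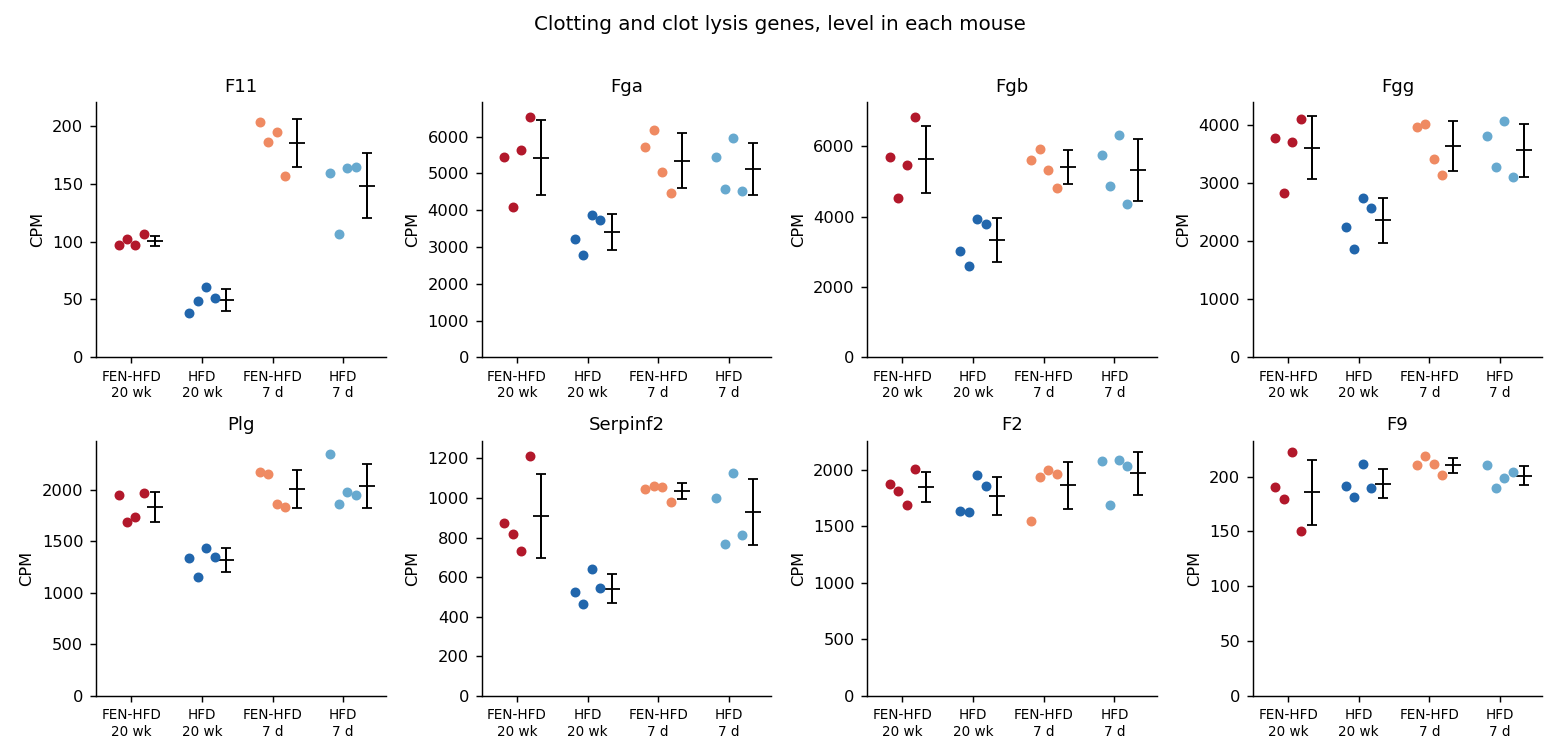
CPM (y axes from 0) of 8 clotting and clot lysis genes in each mouse (points), by group, with the mean and SD of 4 mice. HFD mice at 20 weeks are the lowest group for F11, Fga, Fgb, Fgg, Plg and Serpinf2, while for F2 and F9 the 4 groups overlap.

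A wider list of 54 other complement and coagulation genes, mostly receptors, regulators and factors made outside hepatocytes, was read in the same fits. With fenretinide at 20 weeks, 1 of 49 tested (2.04%) was higher and 0 were lower by edgeR, against 0.769% and 1.09% of all genes. At an unadjusted p under 0.05, 12 were higher (24.5%) and 4 lower (8.16%), against 8.5% and 10% of all genes. Without mouse 29, 2 of 50 tested were higher and 1 was lower, against 1.54% and 1.67% of all genes in that fit. With all mice the 1 was Fcna, which encodes ficolin A, a lectin pathway starter, with 93.3 to 125 CPM in FEN-HFD mice and 30.1 to 66.0 CPM in HFD mice at 20 weeks (log2 fold change 1.24, standard error 0.23, adjusted p = 0.0305, edgeR). At 7 days 0 of 50 were called by edgeR (5 higher and 2 lower at an unadjusted p under 0.05, or 10% and 4%, against 2.63% and 2.45% of all genes), and Fcna had 93.2 to 123 CPM and 59.7 to 79.3 CPM in the same order of diets. Between HFD at 20 weeks and at 7 days, 7 of 50 (14%) were lower and 0 higher by edgeR, against 2.73% and 4.78% of all genes, with 20 lower (40%) and 10 higher (20%) at an unadjusted p under 0.05, against 12.2% and 13.3%.

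Of 19 hepatic transcription factors and acute phase signalling genes, 0 were called with fenretinide at either time by edgeR, with 3 higher (15.8%) and 1 lower (5.26%) at 20 weeks and 0 higher and 1 lower (5.26%) at 7 days at an unadjusted p under 0.05, where all genes had 8.5% and 10%, and 2.63% and 2.45%. Between HFD at 20 weeks and at 7 days 3 of them (15.8%, against 2.73% of all genes) were lower (Foxa3, Nr0b2 and Nr2f2, named after their values were seen). Of 15 acute phase genes, 0 were called in the comparisons of diets or of HFD times by edgeR. At an unadjusted p under 0.05, 4 (26.7%) were higher and 1 (6.67%) lower with fenretinide at 20 weeks, 1 (6.67%) higher and 2 (13.3%) lower at 7 days, and 0 higher and 3 (20%) lower between the HFD times, beside the same shares of all genes as above (13.3% higher and 12.2% lower between the HFD times). Their median log2 fold changes were 0.66, -0.17 and -0.06, beside 0.39, 0.01 and -0.46 for the 39 genes. Without mouse 29 the acute phase median at 20 weeks was 0.15, with 3 higher and 0 lower at an unadjusted p under 0.05, beside 0.32 for the 39 genes.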

How the data were processed

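Liver RNA of 16 mice (4 per group) was measured by RNA-seq, and groups and mouse numbers came from the sample labels. The deposited table gives, for each gene symbol and mouse, an unnormalised read count. The authors removed ribosomal RNA with Ribo-Zero, filtered reads, and aligned them to mm10 with STAR 2.0. Their methods name DESeq2 (version 1.6 per the labels). The counter, annotation and strand setting are not given in the sources used here, and the library kit is named differently in the paper and the labels. The table held no column of authors' fold changes.

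The test was that of edgeR 4.0.16 in R 4.3.3 (filterByExpr, TMM, glmQLFit with robust=TRUE, glmQLFTest). Each pairwise comparison used its own 8 libraries, and the difference between times used all 16. Scripts were tested on simulated data. The alternatives tried were limma-voom with sample weights (limma 3.58.1), DESeq2 1.42.0, RLE scaling, all 16 libraries in 1 fit, a filter of 10 counts in every library, keeping all genes with 1 count or more, removal of Rn45s and Lars2, and each mouse left out. The comparison of FEN-HFD times and the summaries of lists without mouse 29 were added after the data were seen. P-values weigh the difference between groups against the spread between mice within the groups.

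The members and all lists were chosen with earlier results of these data known. Members were named in full where they passed in any comparison, with the 3 smallest p among the others in each. From the wider, regulator and acute phase lists, genes called between diets were to be named, at most 6 per list. Positions are those of RefSeq for GRCm38.p6 (mm10). Exon lengths are those of all GENCODE exons of a gene, merged where they overlap.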

Additional observations from a re-analysis of the deposited data

Results flagged for a closer look

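Single mice stood apart from the other 3 of their group in 13 of 156 sets of member and group, by the gap to the nearest mouse over the range of the group. Chance gives about 1 in 20 such sets. Of these, 4 fell on HFD mouse 143 at 7 days, which was low for F2 (1684 CPM, against 2031 to 2085 CPM in the other 3), F11 (107 CPM, against 159 to 164 CPM), F12 (523 CPM, against 597 to 610 CPM) and Serpind1 (582 CPM, against 751 to 758 CPM). Its summed Kupffer cell markers were 1316 CPM, where the other 3 mice had 555 to 686 CPM. FEN-HFD mouse 61 at 7 days was low for F2 (1546 CPM, against 1939 to 2001 CPM) and F12 (442 CPM, against 611 to 635 CPM).

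At 20 weeks, FEN-HFD mouse 29 was high for C2 (262 CPM, where the others had 155 to 171 CPM) and FEN-HFD mouse 24 was low for F12 (509 CPM, against 562 to 572 CPM). HFD mouse 33 was high for C4bp (737 CPM, against 625 to 643 CPM) and HFD mouse 28 was low for Klkb1 (195 CPM, against 265 to 271 CPM). At 7 days, FEN-HFD mouse 65 was high for Cfb (1901 CPM, against 1678 to 1694 CPM), FEN-HFD mouse 66 was low for Serpinf2 (977 CPM, against 1046 to 1058 CPM) and HFD mouse 144 was high for Cfi (762 CPM, against 680 to 693 CPM).

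The library of FEN-HFD mouse 29 also stood apart in its shares of Rn45s (53.1%, against 1.00% to 1.46% in the other 3) and Lars2 (4.36%, against 0.00685% to 0.0499%), and that of FEN-HFD mouse 61 in its share of Lars2 (0.00846%, against 0.00285% to 0.00352%). Mouse 29 had the highest level of its group for 24 of the 39 members, among them C3, Cfd, F11 and the 3 fibrinogen chains, and the lowest for 8 (C6, C8g, Mbl2, Masp2, C4bp, F9, F13b and Klkb1). Of the other 3 mice, 22 was the lowest for 21 members. The summed Kupffer cell markers of mouse 29 were 1343 CPM, where the other 3 mice had 564 to 660 CPM. The part of these in the levels was not tested.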

How the results depend on the processing

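Over the alternatives, the members' median log2 fold change ran from 0.32 to 0.48 for fenretinide at 20 weeks (0.39 as reported), from -0.51 to -0.40 between the HFD times (-0.46), from -0.12 to -0.04 between the FEN-HFD times (-0.07) and from 0.28 to 0.50 for the difference (0.42). For fenretinide at 7 days it was 0.01 and ran from -0.0326 to 0.0319 with 1 mouse left out. Counts of calls moved more. For fenretinide at 20 weeks the 4 higher members became 19 with DESeq2, 12 with limma-voom, 17 with all 16 libraries in 1 fit and 1 to 6 with 1 mouse left out, and the 0 lower became 1 with DESeq2, limma-voom and the 16-library fit. All genes called higher numbered 416, 490 and 254 in these 3 fits, against 100 as reported, and 4.27%, 4.82% and 3.04% of all genes were called lower, against 1.09%. With 1 mouse left out, 0.122% to 1.54% of all genes were called higher, against 0.769% as reported. At 7 days DESeq2 called 1 higher and 1 lower, and the 16-library fit 1 lower, in place of 0, against 0.399%, 0.21% and 0.0149% of all genes. Between the HFD times the 21 lower members became 12 to 19 with 1 mouse left out, and the 1 higher became 0 without the filter, 0 with at least 10 counts and 0 to 1 with 1 mouse left out. In these left-out fits 0.958% to 2.85% of all genes were called lower and 2.54% to 4.48% higher, against 2.73% and 4.78% as reported. The filter of 10 counts removed Cfd, whose lowest libraries had 2 and 3 counts. Between the FEN-HFD times the 2 lower members became 4 with DESeq2, 7 with limma-voom, 1 in the 16-library fit and 2 to 4 with 1 mouse left out, and the 1 higher became 2 with DESeq2 and limma-voom and 1 to 2 with 1 mouse left out. Of all genes, 1.02%, 3.03%, 0.217% and 0.0692% to 1.66% were lower in these fits, against 0.332% as reported. Those higher were 1.8% with DESeq2, 3.94% with limma-voom and 0.369% to 2.05% with 1 mouse left out, against 0.849%. For the difference, 0 became 5 with DESeq2 and 2 with limma-voom, against 0.348% and 0.261% of all genes.

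All 39 members were followed for fenretinide at 20 weeks and between the HFD times, and 7 members in each other comparison. Among these, signs turned in the following. Pros1 went to -0.009 with limma-voom (0.10 as reported, fenretinide at 20 weeks) and C8a to -0.0006 with limma-voom (0.0091, at 7 days). With 1 mouse left out, F9 ran from -0.1558 to 0.0317 at 20 weeks, C6 from -0.0858 to 0.0845 and C8a from -0.0333 to 0.0772 at 7 days, and C8g from -0.1755 to 0.0468 and F5 from -0.0776 to 0.013 between the HFD times. The causes were not tested. No scaling moved the median of all genes by over 0.1 on the log2 scale. No paired analysis was possible because the groups share no mouse number. Depth limits Cfd at 7 days, and the number of mice, 4 per group, limits every test.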
